A study of Sus scrofa with 63 samples.

Results

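Genes for core and regulatory proteins of pre-mRNA splicing were followed in pig skin after sulfur mustard, a blistering alkylating agent. The set holds the genes whose symbol on the array starts with SRSF, SFRS, SF3A, SF3B, HNRNP, SNRP or PRPF, with 1 symbol per probe set and, for each gene, the probe set with the highest mean over 63 arrays. This gave 54 genes of the 6765 named genes, from 86 of 23999 tested probe sets: 11 SR proteins, 7 SF3A and SF3B subunits, 17 HNRNP genes, 10 SNRP genes and 9 PRPF genes. No filter on low values was applied, so all 54 genes entered every test.

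The biopsies came from the ventral abdomen of female Yorkshire crossbred pigs. Exposed sites received 400 µL of undiluted agent for 8 min under a template that set 3 cm lesions, and control sites were unexposed sites on the same kind of template. Sham animals were prepared in the same way and given no agent. An 8 mm punch was taken at 1, 2, 4, 24, 48, 72, 168, 336 or 514 h, with 3 exposed, 3 control and 1 sham array at each time, 63 arrays in 27 groups. By the design text each time had 4 animals, 3 of them carrying exposed and unexposed sites together and 1 kept as sham, so a control site came from an animal that also had lesions. The labels do not tie replicate numbers to animals, and the last time, 514 h in them, is given in days and as a shorter span in the design text.

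The spliceosome removes introns in a stepwise assembly of small nuclear ribonucleoproteins (snRNPs), each built on a ring of Sm proteins around a small nuclear RNA. The SF3A and SF3B proteins belong to the particle that binds the branch point, and PRPF proteins act in the later tri-snRNP, in its activation, or beside the first particle to bind. SR proteins bind exons and mostly favour their inclusion, while HNRNP proteins coat nascent transcripts and often act against them. These roles are known mainly from human cells and yeast, and they are given here as background.

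The values are log2 signals on an arbitrary scale, so differences are given between groups for 1 probe set and never between genes. The 54 array columns of exposed and control sites, with the 9 sham columns, had medians between 7.75 and 7.86, and 2 arrays of a group differed with an SD of 0.231 to 0.583 over probe sets. KRT1 and KRT10, keratins of the upper epidermis, averaged 14.1 each in the control biopsies on the log2 scale. The biopsies also held muscle in varying amounts. A gene was called higher or lower at an adjusted p under 0.05 in limma, with Benjamini-Hochberg adjustment over all 23999 probe sets. In whole biopsies fewer cells of a type and less RNA per cell cannot be told apart.

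Splicing genes changed little in the first hours, were mostly higher in exposed skin at 24 h, and were less often called afterwards. At 24 h 34 of the 54 genes were higher and 2 were lower in exposed than in control skin, while 27.1% of all probe sets were called at that time, 14.4% being higher and 12.7% lower. Among the 6765 named genes, each by 1 probe set, 36.3% were called and 24.9% were higher. The median difference of the 54 genes was 0.44 on the log2 scale at 24 h, against -0.014 over all probe sets and 0.066 over named genes.

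At 1 h 1 gene was higher and 1 lower, against 0.413% of all probe sets higher and 0.788% lower. At 2 h 1 gene was higher and none lower (all probe sets 0.338% and 0.0542%), and at 4 h 4 were higher and none lower (1.11% and 0.342%). Of the 4 genes at 4 h 3 were SR proteins. At 48 h 13 genes were higher and 2 lower (5.84% and 4.11%), and at 72 h 2 were higher and none lower (5.40% and 4.25%). At 168 h 3 were higher and 3 lower (9.87% and 8.06%), at 336 h 2 were higher and none lower (2.38% and 1.66%), and at 514 h 4 were higher and none lower (3.70% and 2.13%). HNRNPC was among the genes higher at each of these later times. Same-numbered exposed and control arrays deviated together at 1, 4, 72, 336 and 514 h, and a fit blocked on those numbers called 1 gene in place of 2 at 1 h. It called 4 in place of 2 at 72 h, also 4 in place of 2 at 336 h, and 8 in place of 4 at 514 h. The block also raised the share of all probe sets called, at 24 h from 27.1% to 31.8%. The count of 15 at 48 h was 5 without exposed replicate 3 of that time and 6 without control replicate 2. At 24 h the count of 36 stayed between 32 and 34 with any 1 of the 6 arrays left out.

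**Figure D1:**
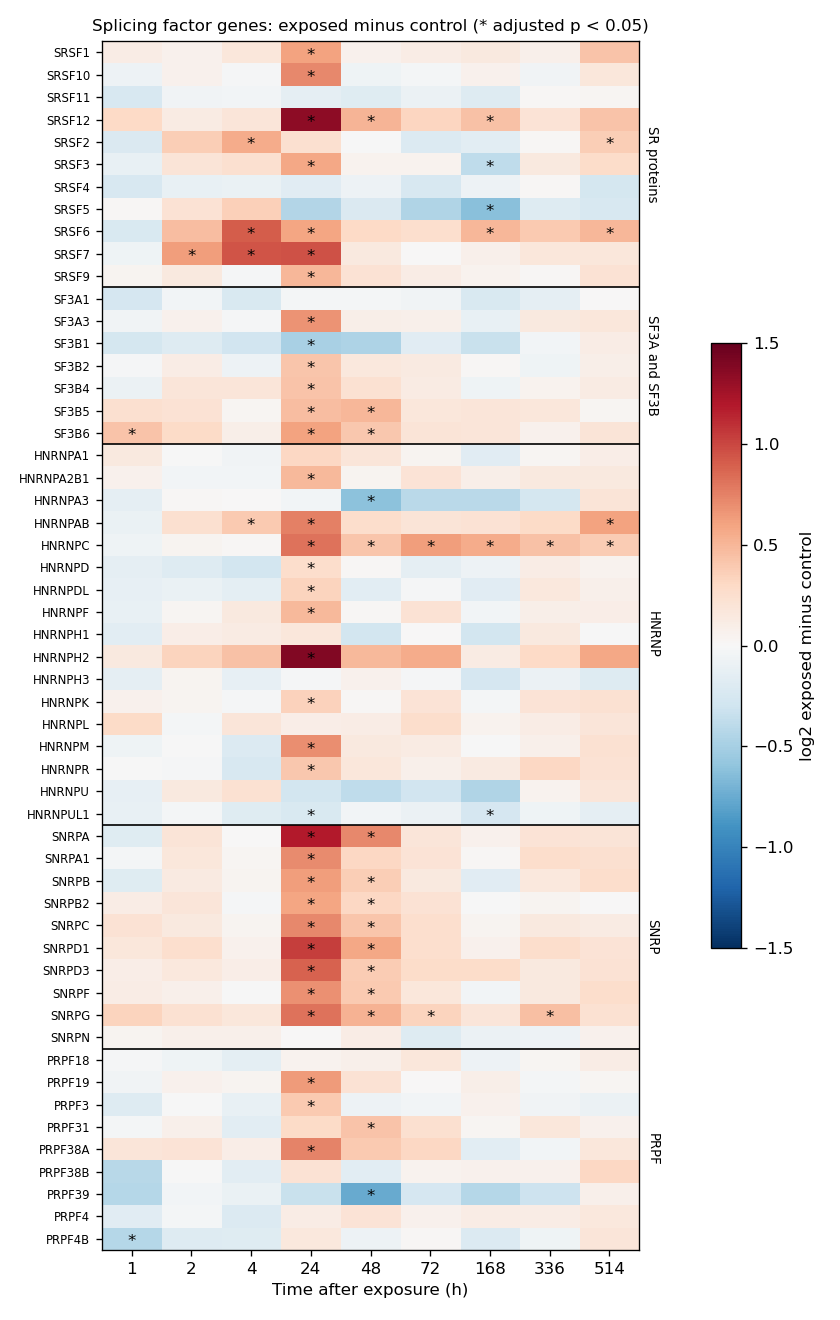
Difference in log2 signal, exposed minus control, for each of the 54 splicing genes (down, grouped by family) at the 9 times after exposure (across, hours), each cell a difference between the means of 3 exposed and 3 control arrays. The 24 h column holds 34 higher and 2 lower calls, more than any other time.

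The arrays themselves showed the same step. At 24 h the 3 exposed arrays lay above all 3 control arrays for 38 of the 54 genes, which held for 19.9% of all probe sets, and below them for 6, which held for 20.6%. For 34 of the 54 genes the exposed arrays also lay above the sham array of that time. The members as a whole were not level in the sham array: at 24 h it was above the control mean for 43 genes, by a median of 0.14, and the exposed mean was above the sham array by a median of 0.30. These counts with the sham array have no share of all probe sets beside them and only describe the 54 genes. At 514 h the exposed arrays were above the controls for 27 genes, against 15.3% of all probe sets, although 4 genes passed the test there.

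The 24 h arrays were transcribed in vitro on 2 dates, each with exposed and control arrays. On the date with 1 exposed and 1 control array, 43 of the 54 genes were higher in the exposed one, with a median difference of 0.48. On the date with 2 of each, 43 of 54 were again higher, with a median of 0.41. Over all probe sets the medians were -0.016 and -0.0074. At 168 h the 2 dates differed: 21 of 54 genes were higher on the date with 2 exposed and 2 control arrays (median -0.068; SNRP genes 2 of 10), and 38 of 54 on the date with 1 of each (median 0.11; SNRP genes 10 of 10). An array against an array has no spread, so neither single-array date tests a difference.

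Counts by family at 24 h stand against 14.4% of all probe sets and 24.9% of named genes higher. Of the SNRP genes 9 of 10 were higher and none lower, with a median difference of 0.72. Among SR proteins 7 of 11 were higher and none lower (median 0.58), among the SF3A and SF3B genes 5 of 7 were higher and 1 lower (median 0.42), and among HNRNP genes 10 of 17 were higher and 1 lower (median 0.33). The PRPF genes had 3 of 9 higher and none lower, with a median of 0.22. The differences between families were not tested. Control levels moved as well. SNRPA, SNRPB, SNRPB2, SNRPC, SNRPD1, SNRPF and SNRPG had their lowest control mean of the 9 times at 24 h. The mean of the SNRP genes ran from 10.041 to 10.215 on control arrays at 24 h and from 10.361 to 10.639 at 72 h. On exposed arrays it ran from 10.797 to 10.893 at 24 h and from 10.670 to 10.721 at 72 h.

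**Figure D2:**
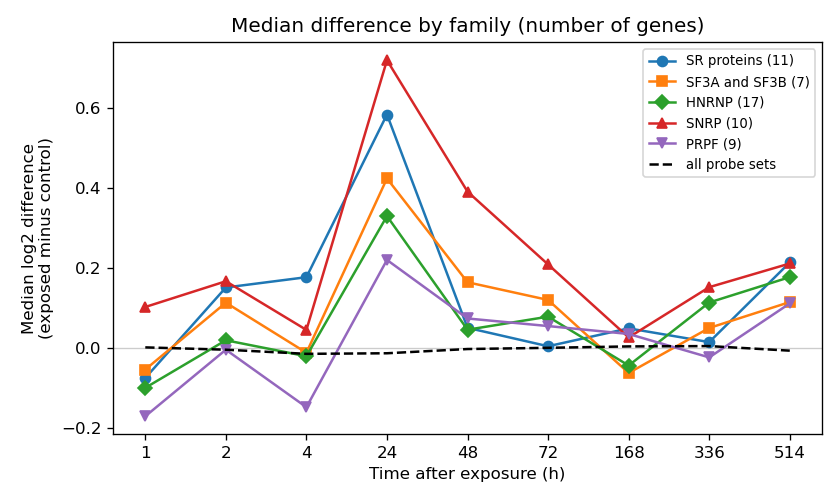
Median difference in log2 signal, exposed minus control, over the genes of each family (vertical axis) at each time after exposure (horizontal axis, hours). The SNRP genes had the highest median at 24 h, 0.72, and the PRPF genes the lowest, 0.22.

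For the following accounts the times were also averaged into 3 windows, 1-4 h, 24-72 h and 168-514 h, each with 9 exposed and 9 control arrays. In the 1-4 h window 5 genes were higher and 2 lower, against 2.07% of all probe sets higher and 3.41% lower. In the 24-72 h window 31 were higher and 7 lower, with 35.1% called, 18.2% higher and 16.9% lower; among named genes 45.1% were called, 30.8% higher and 14.3% lower. In the 168-514 h window 9 were higher and 3 lower, against 12.0% of all probe sets higher and 9.88% lower. The medians of the 54 genes were 0.021, 0.24 and 0.071 in the order of the windows.

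Of the 5 genes higher in the 1-4 h window 3 were SR proteins, SRSF7, SRSF6 and SRSF2. Set against the sham arrays of those times SRSF7 was 0.51 higher (adjusted p = 0.00132), while SRSF6 and SRSF2 were not called, at 0.14 each (adjusted p = 0.714 and 0.631). SRSF7, an SR protein that also helps export spliced mRNA, had 11.90, 11.66 and 11.85 in exposed skin at 4 h, against 10.96, 10.82 and 10.83 in control skin. Exposed and control arrays did not overlap, and all 3 exposed arrays lay above the sham array at 10.92. The difference was 0.94 ± 0.12 (SE), a fold of 1.92, with an adjusted p of 1.57e-06 in limma.

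SRSF7 was already higher at 2 h, by 0.63 ± 0.12 (adjusted p = 0.00335), with exposed arrays at 11.42, 11.87 and 11.25 and control arrays at 10.75, 11.06 and 10.84. That call was lost without exposed replicate 2 (0.45, adjusted p = 0.190) and without control replicate 1 (0.56, adjusted p = 0.0669). At 24 h the exposed arrays had 12.20, 11.97 and 12.09 and the controls 11.03, 11.16 and 11.22, a difference of 0.95. By 72 h the groups overlapped, with means of 11.16 in exposed and 11.15 in control skin. Of the 54 genes SRSF7 had the lowest adjusted p in the test of whether the difference varied over the 9 times, 7.43e-06.

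SRSF2, which binds exon enhancers, was 0.56 ± 0.12 higher at 4 h (adjusted p = 0.00387). Its window difference over 1-4 h was 0.24 ± 0.07 (adjusted p = 0.0278), and in 7 of 18 fits with 1 array left out it no longer passed, with adjusted p up to 0.0980. In the 24-72 h window its difference was 0.0085 (adjusted p = 0.945).

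SRSF12, a small SR-related protein that opposes other SR proteins in human splicing assays, had one of the largest differences at 24 h. Its exposed arrays had 7.80, 8.11 and 7.58, against 6.30, 6.76 and 6.38 in controls, with the sham array at 6.22. The exposed arrays stood well above the controls at 24 h, and the groups were closer or overlapped at the other times. The 24 h difference was 1.35 ± 0.14 (adjusted p = 7.89e-10), and it was 0.73 ± 0.08 over 24-72 h and 0.36 ± 0.08 over 168-514 h, with all 9 exposed arrays above the control mean of their time in both windows. Its control signal lies below the array medians, a range in which the authors' normalization compresses differences.

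SRSF3, SRSF9 and SRSF1, 3 further SR proteins, were higher over 24-72 h by 0.23, 0.27 and 0.26. None of them was called against the sham arrays in that window, at -0.00034, 0.12 and 0.14 (adjusted p = 0.999, 0.321 and 0.433 in limma). SRSF3 was lower at 168 h, by 0.38 ± 0.11 (adjusted p = 0.0120). SRSF4, also an SR protein, was lower over 24-72 h, at -0.16 (adjusted p = 0.0179).

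SRSF5, an SR protein first known from rat liver cells as a gene induced by growth signals, went the other way from most of its family. Over 24-72 h its exposed arrays ran from 10.20 through a median of 10.77 to 11.08, and its control arrays from 10.81 through 11.07 to 11.41. All 9 exposed arrays lay below the control mean of their time, although the ranges overlapped. The difference was -0.37 ± 0.12 (adjusted p = 0.0176); the call was lost without exposed replicate 3 of 24 h (adjusted p = 0.0521) and of 72 h (adjusted p = 0.0609). At 168 h the exposed arrays had 9.86, 10.54 and 10.19 and the controls 10.54, 10.80 and 11.13, a difference of -0.63 ± 0.21 (adjusted p = 0.0337), which 4 of 6 fits with 1 array left out did not call. Over 168-514 h it was -0.35 ± 0.12 (adjusted p = 0.0326), and 7 of 18 such fits did not call it. Set against the sham arrays it was at -0.23 in that window and not called. Tested directly, the change from the 1-4 h to the 24-72 h difference was -0.56 ± 0.17 (adjusted p = 0.0200).

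SRSF6 gave a split answer, because the array holds 6 probe sets for it and they disagreed. The brightest, the one used for the gene here, had 11.85, 11.54 and 11.69 in exposed skin at 24 h, against 11.01, 11.25 and 11.04 in control skin. The groups did not overlap, and the difference was 0.59 ± 0.14 (adjusted p = 0.00101). The third brightest had 8.26, 8.29 and 8.65 in exposed skin at 24 h, against 9.69, 9.76 and 9.97 in control skin.

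The third brightest was thus lower in exposed skin, at -1.41 ± 0.18 (adjusted p = 1.19e-07), with no overlap. The dimmest was also lower at 24 h, at -1.20 ± 0.23 (adjusted p = 8.56e-05). The 3 others lay between -0.023 and 0.043 at 24 h and were not called.

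At 4 h the same probe sets split in another way. The brightest and those 3 were higher by 0.70 to 0.94, each called, while the third brightest and the dimmest had -0.37 and -0.26 and were not called. Over 24-72 h 1 of the 6 was higher and 5 were lower. What part of the SRSF6 transcripts each probe set reads was not analysed here.

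On the brightest probe set SRSF6 was higher over 168-514 h by 0.47 ± 0.08 (adjusted p = 2.77e-05), with exposed arrays above the controls at each of the 3 late times. On the mean of its 6 probe sets that difference was -0.055 (adjusted p = 0.557). Set against the sham arrays the brightest probe set was 0.24 higher in that window and not called. Its 1-4 h difference on the brightest probe set was 0.38 ± 0.08 (adjusted p = 0.00181).

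**Figure D3:**
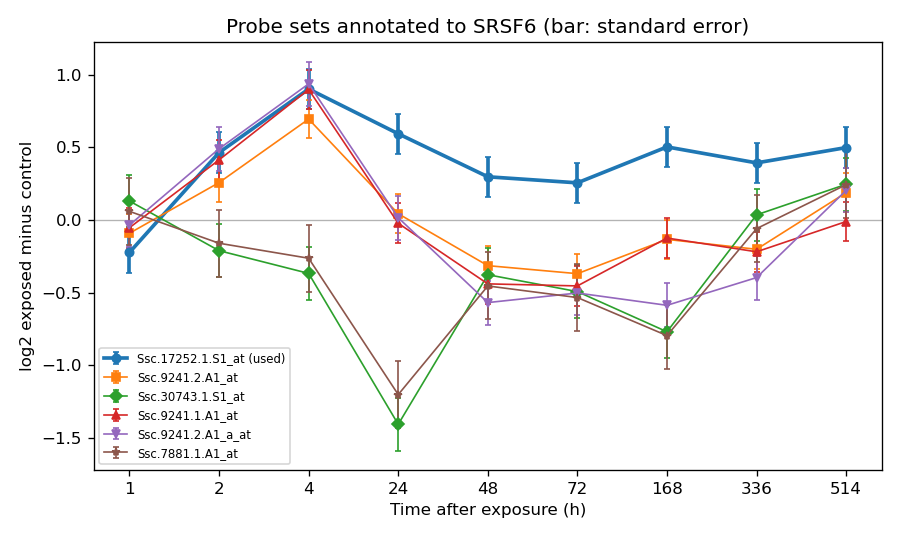
Difference in log2 signal, exposed minus control (vertical axis), for the 6 probe sets of SRSF6 over the 9 times (horizontal axis, hours). At 24 h the brightest probe set was higher by 0.59 while the third brightest and the dimmest were lower, at -1.41 and -1.20.

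Over the set, 35 genes had 1 probe set and 19 had several, 51 probe sets together. In the 24-72 h window 10 of these 19 genes had the same sign on all of their probe sets and 7 the same call. Besides SRSF6, HNRNPA2B1 had calls both ways, with 1 probe set higher, 1 lower and 1 not called. With 2 probe sets each, HNRNPC, SNRPG, SRSF9 and PRPF39 had 1 called, and the other of SRSF9 had the opposite sign.

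Among the branch point proteins, SF3B6, the subunit that lies at the branch point adenosine in human SF3B, was called higher in the first 2 windows. At 24 h its exposed arrays had 11.29, 11.29 and 11.30 and its control arrays 10.75, 10.88 and 10.45. The exposed arrays were above the controls at each of the first 6 times. It was higher by 0.42 ± 0.10 at 1 h (adjusted p = 0.0287), a call that 4 of 6 fits with 1 array left out did not make, nor did the fit with the replicate block (adjusted p = 0.0505). Over 1-4 h the difference was 0.27 ± 0.06 (adjusted p = 0.00343) and over 24-72 h 0.40 ± 0.06 (adjusted p = 9.90e-07). Set against the sham arrays, 1 a time, SF3B6 was 0.15 higher over 1-4 h, not called, and 0.32 higher over 24-72 h.

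SF3B1, the large subunit that clamps the branch helix, was lower. At 24 h its exposed arrays had 11.63, 11.55 and 11.53, against 11.96, 12.11 and 12.08 in controls, with the sham array at 12.10. No exposed array reached a control array at 24 h, and the difference was -0.48 ± 0.18 (adjusted p = 0.0446). With any 1 of the 6 arrays left out that call was lost, with differences of -0.53 to -0.45 and adjusted p up to 0.112. Over 24-72 h it was -0.37 ± 0.11 (adjusted p = 0.00474), and with 1 array left out it stayed between -0.45 and -0.25, with adjusted p up to 0.0219. Its other probe set was not called in that window.

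HNRNPC, which binds uridine tracts of nascent transcripts, was the gene called at most times, on the probe set used here. It was higher at each of the 6 times from 24 h on, by 0.82, 0.42, 0.63, 0.55, 0.44 and 0.38 in order, and its exposed and control arrays did not overlap at any of them. At 24 h the exposed arrays had 11.52, 11.67 and 11.76, against 10.81, 10.95 and 10.73 in control skin.

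HNRNPC did not differ in the first hours, at -0.0040 (adjusted p = 0.990) over 1-4 h. Over 24-72 h it was 0.62 ± 0.07 higher (adjusted p = 1.14e-09) and over 168-514 h 0.46 ± 0.07 (adjusted p = 1.81e-06), and in each window all 9 exposed arrays lay above the control mean of their time. The change between the first 2 windows was 0.62 ± 0.09 (adjusted p = 7.78e-06). The other of its 2 probe sets had the same sign but was not called at 24 h, over 24-72 h or over 168-514 h.

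HNRNPH2, which binds guanine-rich runs, had the largest difference of the 54 genes at 24 h. Its exposed arrays had 9.91, 10.01 and 10.02, against 8.52, 8.58 and 8.68 in controls, a difference of 1.39 ± 0.19 (adjusted p = 4.43e-07) and a fold of 2.62. The control level at 24 h was also its lowest of the 9 times, at 8.59, against 9.79 at 336 h, and the 24 h sham array had 9.17. Set against that sham array the difference was 0.81 ± 0.27 (adjusted p = 0.0408).

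Over 24-72 h HNRNPH2 was 0.81 ± 0.11 higher (adjusted p = 1.71e-07), with no overlap at any of the 3 times, and its 2 probe sets were both called. Over 168-514 h it was 0.33 ± 0.11 (adjusted p = 0.0259). Of 18 fits with 1 array left out 5 did not call it, with adjusted p up to 0.0915 without control replicate 1 of 168 h. Set against the sham arrays HNRNPH2 was 0.092 higher over 168-514 h and not called.

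HNRNPAB, a member of the A/B type of RNA-binding proteins, was higher late as well as at 24 h. At 514 h its exposed arrays had 11.30, 11.16 and 10.97, against 10.40, 10.60 and 10.63 in control skin. The groups did not overlap at any of the 3 late times. The 514 h difference was 0.60 ± 0.10 (adjusted p = 0.000357), and that over 168-514 h was 0.37 ± 0.06 (adjusted p = 1.11e-05).

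HNRNPA3, of the A/B type, and HNRNPU were lower over 24-72 h, at -0.35 ± 0.12 (adjusted p = 0.0155) and -0.31 ± 0.10 (adjusted p = 0.0151). HNRNPU is also a scaffold of nuclear chromatin. Exposed replicate 3 at 48 h was the lowest HNRNPA3 array of the window, at 9.85; without it HNRNPA3 had -0.23 (adjusted p = 0.0741) and HNRNPU -0.26 (adjusted p = 0.0543). Without control replicate 2 of 48 h the values were -0.28 (adjusted p = 0.0561) and -0.24 (adjusted p = 0.0626).

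HNRNPD, which binds AU-rich elements of unstable mRNAs, was lower at 1-4 h, at -0.20 ± 0.05 (adjusted p = 0.00810), with all 9 exposed arrays below the control mean of their time. Set against the sham arrays HNRNPD was at -0.13 in that window and not called. Late, HNRNPUL1, a relative of HNRNPU, was lower, at -0.15 ± 0.05 (adjusted p = 0.0168), and 2 of 18 fits with 1 array left out did not call it, those without exposed replicate 1 (adjusted p = 0.0521) or control replicate 3 (adjusted p = 0.0548) of 336 h. HNRNPH3, a relative of HNRNPH2, had -0.18 ± 0.07 (adjusted p = 0.0480), a call lost in 13 of 18 such fits.

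Of the SNRP genes 9 of 10 were higher over 24-72 h and none lower. SNRPA, which binds a stem loop of the U1 small nuclear RNA, had 10.36, 10.06 and 10.27 in exposed skin at 24 h, against 9.02, 9.04 and 9.04 in control skin and 9.10 in sham skin. The groups did not overlap at 24 or 48 h and overlapped at the other 7 times. The 24 h difference was 1.19 ± 0.14 (adjusted p = 1.28e-08) and the 48 h difference 0.72 ± 0.14 (adjusted p = 0.000403).

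SNRPA did not differ at 1-4 h, at 0.0035 (adjusted p = 0.992), and was 0.70 ± 0.08 higher over 24-72 h (adjusted p = 3.66e-09). The window difference was 0.70 ± 0.11 above that of 1-4 h (adjusted p = 2.03e-05), and that of 168-514 h was lower again, at -0.55 ± 0.11 (adjusted p = 0.00125). Its control mean ran from 9.04 at 24 h to 9.90 at 72 h, so its differences are read within a time.

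SNRPD1, a subunit of the Sm ring, had 11.53, 11.40 and 11.51 in exposed skin at 24 h, against 10.56, 10.45 and 10.29 in control skin. The sham array lay between the groups, at 10.85. The difference was 1.04 ± 0.12 (adjusted p = 1.28e-08), and over 24-72 h it was 0.62 ± 0.07 (adjusted p = 2.33e-09).

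Other Sm ring genes of the set were higher with it over 24-72 h: SNRPD3 by 0.51, SNRPG by 0.56, SNRPF by 0.42 and SNRPB by 0.38, each called. SNRPC, which sits at the donor splice site, was higher by 0.46. At 48 h 8 of the 10 SNRP genes were called higher, against 5 of the other 44 genes. SNRPG was higher at 336 h, by 0.45 ± 0.11 (adjusted p = 0.00724), with 11.53, 11.71 and 11.48 in exposed and 11.16, 10.99 and 11.21 in control skin; the call was lost without exposed replicate 2 (adjusted p = 0.0820) or control replicate 2 (adjusted p = 0.0751).

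SNRPG was also 0.24 ± 0.06 higher at 1-4 h (adjusted p = 0.00969). In that window its difference from the sham arrays was -0.0019, so the early rise was measured against control sites and not against sham sites. SNRPN, the imprinted relative of SNRPB that is strongest in neurons, was the exception of the family, at -0.024 ± 0.061 over 24-72 h (adjusted p = 0.813).

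**Figure D4:**
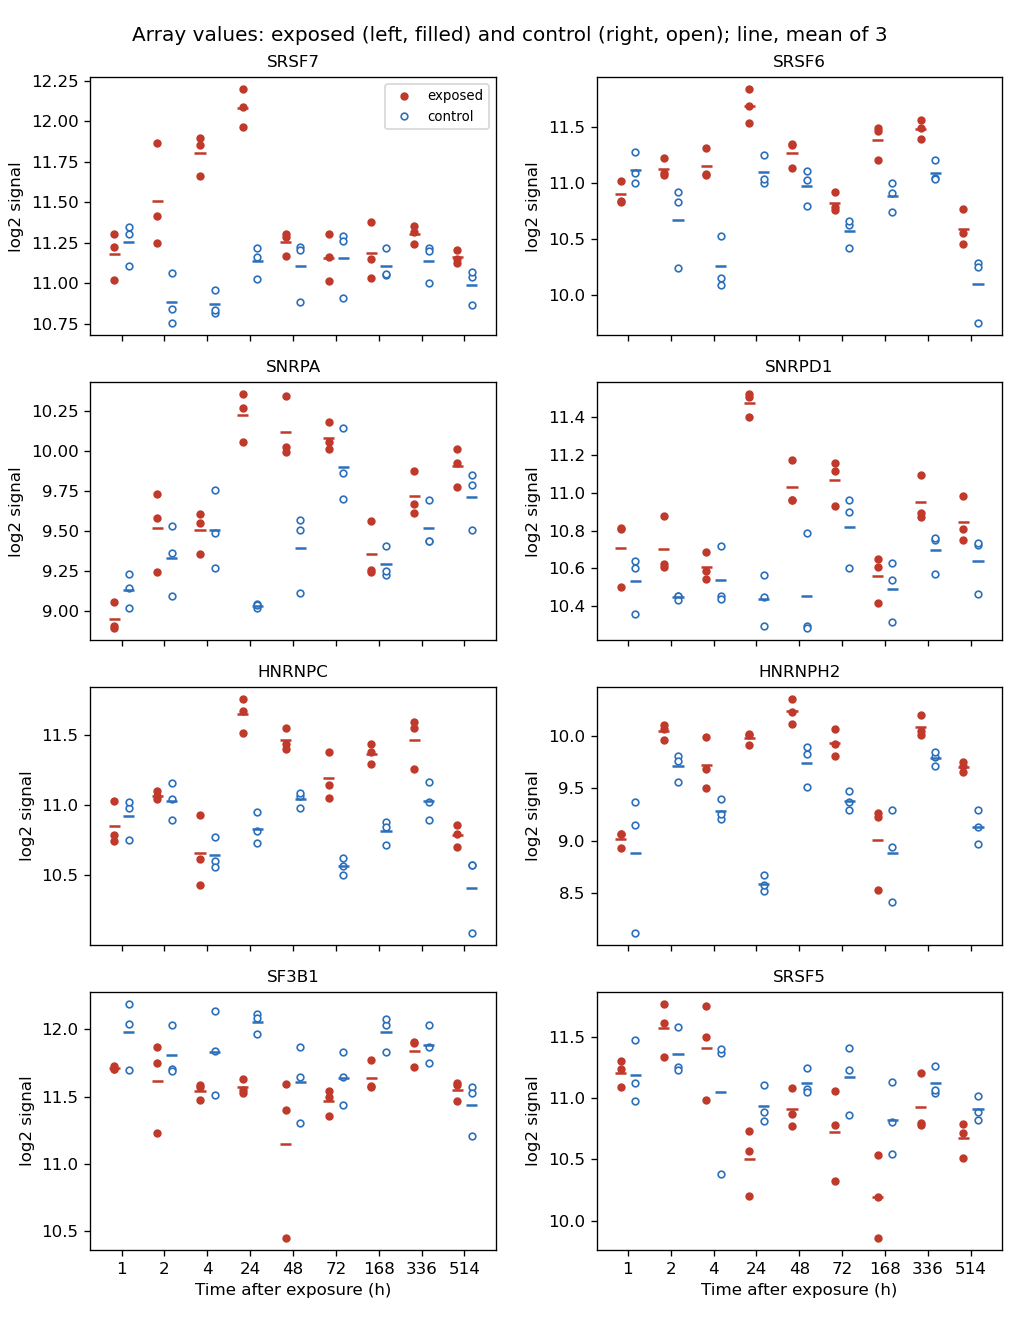
Log2 signal (vertical axis) of 8 of the splicing genes on each exposed and control array at the 9 times (horizontal axis, hours), 1 point per array. Exposed SNRPA arrays at 24 h lie at 10.06 to 10.36 above controls at 9.02 to 9.04, and exposed SF3B1 arrays at 11.53 to 11.63 lie below controls at 11.96 to 12.11.

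Of the PRPF genes 3 of 9 were higher and 1 lower over 24-72 h, near the shares among named genes (30.8% higher, 14.3% lower). PRPF38A, needed in yeast and human cells to activate the assembled spliceosome, was higher by 0.48 ± 0.08 (adjusted p = 6.09e-06), and its late difference was lower again, at -0.49 ± 0.11 between the windows (adjusted p = 0.00388). PRPF31, which joins the tri-snRNP, was higher by 0.32 and PRPF19, a ubiquitin ligase of the active spliceosome, by 0.29.

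PRPF4B, a kinase that acts on tri-snRNP proteins, was lower at 1 h. Its exposed arrays had 10.06, 9.76 and 9.91, against 10.33, 10.34 and 10.35 in control skin, with the sham array at 10.10. The groups did not overlap, and the difference was -0.43 ± 0.11 (adjusted p = 0.0351), a call lost in 5 of 6 fits with 1 array left out. Over 1-4 h it was -0.27 ± 0.06 (adjusted p = 0.00592). Set against the sham arrays PRPF4B was at -0.30 in that window and not called.

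PRPF39, a protein of the U1 snRNP in yeast, was lower over 24-72 h, at -0.44 ± 0.12 (adjusted p = 0.00231). At 48 h its exposed arrays had 9.55, 9.56 and 8.32, against 9.40, 10.26 and 10.03 in control skin. The third exposed array stood apart, and the groups overlapped. The 48 h difference was -0.75 ± 0.20 (adjusted p = 0.0117); it was -0.34 (adjusted p = 0.339) without exposed replicate 3, -0.57 (adjusted p = 0.141) without control replicate 2 and -0.69 (adjusted p = 0.0536) without control replicate 3. SF3B1 was lowest on the same exposed array, at 10.45, and without it 3 in place of 7 genes were called lower over 24-72 h.

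**Figure D5:**
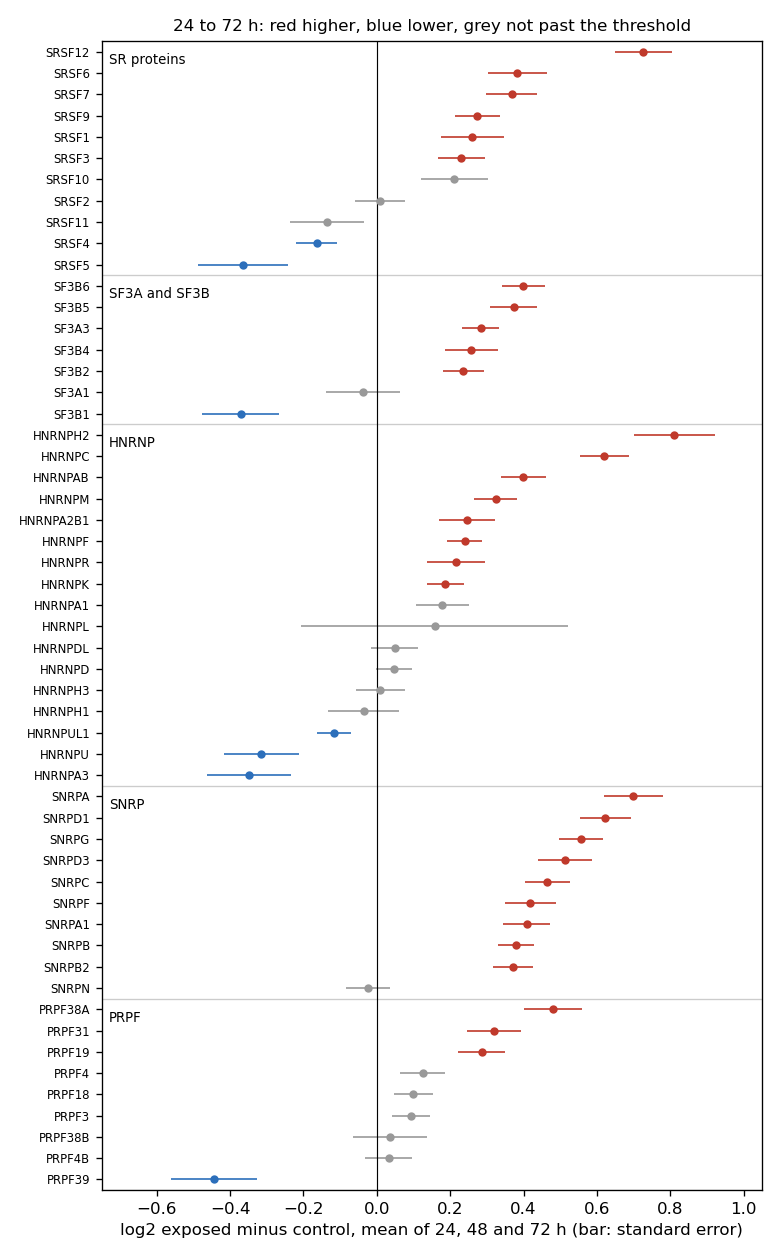
Mean difference in log2 signal over 24, 48 and 72 h, exposed minus control (horizontal axis), for the 54 genes grouped by family (down), with bars of 1 SE. It ran from -0.44 for PRPF39 to 0.81 for HNRNPH2, with 31 genes called higher and 7 lower.

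The response depended on time for 25 of the 54 genes by the F test over the 9 times, against 18.7% of all probe sets and 26.4% of named genes. Of these 25, 9 were SNRP genes of 10, 6 HNRNP of 17, 5 SR proteins of 11, 4 PRPF of 9 and 1 SF3 gene of 7. From the first to the second window 22 genes had a higher and 1 a lower difference, against 10.1% of all probe sets higher and 6.43% lower. From the second to the third none had a higher and 10 a lower difference, against 4.45% of all probe sets higher and 4.00% lower, and 6 of these 10 were SNRP genes.

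Sham and control arrays were compared over the 9 times as a background. None of the 54 genes was called (10 had an unadjusted p under 0.05), with 0.0208% of all probe sets called. The sham difference from control was positive for 42 genes, with a median of 0.068 and a range of -0.076 to 0.21. With sham arrays as the comparison, 1 a time, 19 genes were called higher at 24 h and none lower. Exposed against sham at 24 h, 13.0% of all probe sets were called, 1778 higher and 1334 lower.

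Other genes of the pathway, 83 measured of 136 listed by role, were counted in the same way. At 24 h 36 (43.4%) were higher and 5 (6.02%) lower, against 14.4% of all probe sets higher and 12.7% lower. Of named genes 24.9% were higher. Over 24-72 h 35 (42.2%) were higher and 11 (13.3%) lower, against 30.8% and 14.3% of named genes, so the lower share was near the background. Over 1-4 h 1 (1.20%) was higher and 3 (3.61%) lower, and over 168-514 h 8 (9.64%) were higher and 6 (7.23%) lower; none of these 4 shares was far from that of all probe sets, 2.07% and 3.41% early and 12.0% and 9.88% late.

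Of the factors that load Sm rings onto small nuclear RNA 8 of 10 measured genes were higher over 24-72 h and none lower, where 30.8% of named genes were higher. GEMIN5 and DDX20 did not pass, at 0.048 and -0.019. SMN1, whose product holds the assembly complex together, had 9.90, 9.59 and 9.92 in exposed skin at 24 h, against 8.71, 8.82 and 8.65 in control skin. At 72 h the groups overlapped, with 9.47, 9.47 and 9.48 against 9.49, 9.41 and 9.49. Its difference over 24-72 h was 0.44 ± 0.06 (adjusted p = 6.67e-08), and that of GEMIN8, another subunit, was 0.51 ± 0.08 (adjusted p = 6.26e-07).

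The next counts over 24-72 h stand against 30.8% of named genes higher and 14.3% lower. In the complex of the catalytic step 6 of 15 genes (40%) were higher, not far from that share, and none lower. PPIL1 was at 0.60 ± 0.07 and PPIE at 0.53 ± 0.09, both peptidyl-prolyl isomerases. In the exon junction and export group 6 of 11 (54.5%) were higher and 1 (9.09%) lower. RBM8A, a core subunit, was at 0.49 ± 0.05 and ALYREF, an export adaptor, at 0.43 ± 0.07. Of the snRNP proteins outside the prefixes 4 of 9 (44.4%) were higher, with PPIH and SNRNP40 both at 0.38.

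Of the LSM genes 3 of 5 (60%) were higher and 2 (40%) lower, against 30.8% and 14.3% of named genes. LSM3 was at 0.55 ± 0.11 and LSM6 at -0.56 ± 0.10. The other lower gene was LSM14A, at -0.26, whose product is not a subunit of the spliceosome. Of the factors that recognise the branch point 1 of 5 (20%) was higher, RBM17 at 0.18 ± 0.06. Also 1 of them (20%) was lower, SF1 at -0.43 ± 0.17 (adjusted p = 0.0441). BUD31, of the catalytic step, was 0.31 ± 0.07 higher at 1-4 h already (adjusted p = 0.00162).

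Of the regulators of alternative splicing 7 of 23 (30.4%) were higher and 4 (17.4%) lower over 24-72 h, shares near those of named genes (30.8% and 14.3%). ESRP1, the epithelial splicing regulator, had 10.43, 10.47 and 9.31 in exposed skin at 24 h, against 11.74, 11.57 and 11.90 in control skin. The groups did not overlap at 24, 48 or 72 h, and the window difference was -1.40 ± 0.15 (adjusted p = 1.60e-09). CIRBP, a cold-induced RNA-binding protein, was -0.55 ± 0.10 (adjusted p = 2.83e-05) over 24-72 h and -0.42 ± 0.10 (adjusted p = 0.00172) over 168-514 h.

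The kinases that phosphorylate SR proteins had no gene higher in any window. Over 24-72 h 3 of 5 (60%) were lower, against 14.3% of named genes, with CLK1 at -0.35 ± 0.13 (adjusted p = 0.0314) and CLK4 at -0.33 ± 0.12 (adjusted p = 0.0334). For both, exposed replicate 3 at 48 h was the lowest exposed array of the window. CLK1 had 10.65, 10.86 and 9.67 on the exposed arrays of 48 h, and CLK4 had 7.84, 8.11 and 7.25. The calls of these kinases were not examined with that array left out. Over 1-4 h DYRK1A was -0.33 ± 0.07 (adjusted p = 0.000817) and CLK2 -0.22 ± 0.06 (adjusted p = 0.0127). Late, PTBP3, a repressor of exon inclusion, was 0.45 ± 0.16 higher (adjusted p = 0.0346).

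Cell type markers also differed between exposed and control biopsies, and the part of cell content in these results was not tested. The neutrophil and macrophage mean differed by 1.49 at 24 h and 1.96 at 168 h. The differentiated keratinocyte mean differed by -1.78 at 24 h and -3.70 at 168 h. The median difference of the 54 splicing genes was 0.44 and -0.0097 at these times. Over 24-72 h the mean log2 signal of 16 neutrophil and macrophage markers ran from 9.46 to 10.82 on exposed and from 7.89 to 9.22 on control arrays, with 15 of 16 called higher. The mean of 5 differentiated keratinocyte markers ran from 9.70 to 11.47 on exposed and from 11.86 to 12.97 on control arrays, with 4 of 5 lower. The mean of 4 basal keratinocyte markers ran from 7.61 to 7.88 on exposed and from 8.02 to 8.62 on control arrays, with 3 of 4 lower. These 3 lists differed by 1.49, -1.95 and -0.61, each with an adjusted p of 0.0012 by an exact permutation test over arrays within times, where the unadjusted p of 0.00025 is the smallest it can give.

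The mean of 19 muscle markers ran from 7.10 to 12.64 on exposed and from 10.17 to 13.37 on control arrays over 24-72 h, a difference of -1.83 (exact permutation adjusted p = 0.0246). At 24 h it was 8.79, 7.40 and 7.10 on exposed and 11.37, 11.55 and 10.17 on control arrays. With that mean as a covariate, 32 splicing genes were higher and 2 lower at 24 h, and 30 and 7 over 24-72 h. That fit called 29.1% of all probe sets at 24 h, 3489 higher and 3503 lower. Over 24-72 h it called 35.8%, 4258 higher and 4324 lower. Of 18 cell cycle markers 12 were higher over 24-72 h, with a mean difference of 0.45 and arrays at 8.04 to 9.06 in exposed and 7.88 to 8.67 in control skin. Over 168-514 h 17 of 18 were higher, with a mean difference of 0.69. At 24 h alone the mean of the cell cycle markers differed by 0.11.

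Fibroblast markers differed by -0.23 over 24-72 h (4 of 8 lower, 1 higher; exact permutation adjusted p = 0.0382), lymphocyte markers by 0.25 (1 of 9 higher; adjusted p = 0.0466 by the same exact test), and adipocyte markers by -0.12 (none of 7 called; exact permutation adjusted p = 0.310). Signals of this kind have no zero, so no marker was absent from a group by this measure.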

How the data were processed

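Signals from Affymetrix Porcine Genome arrays, hybridised with RNA amplified by in vitro transcription from an oligo(dT) primer (10 µg of total RNA per biopsy, per the labels' protocols), were used as the authors deposited them, as log2 values per probe set. RMA and Partek are named in the submitters' processing notes, without versions. RMA fits background, quantile normalization and a probe summary over arrays, and compresses differences of dim probe sets. No array was rescaled, imputed or left out, and an array has no read depth, so the number of arrays limits the precision. Symbols came from the platform's annotation, which listed 10297 probe sets: 10099 had 1 symbol, 198 several, and 13826 were not listed. The 54 symbols were all found among the RefSeq genes of Sscrofa11.1. Of 24123 probe sets 124 controls were left out.

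A group-means model over all 63 arrays (limma 3.58.1 in R 4.3.3, files read with the data.table package, version 1.17.8) had 36 residual degrees of freedom. It gave the exposed minus control difference of every time, its mean in each window, differences between windows, an F test over the 9 times, and sham minus control. Two-sided p-values had Benjamini-Hochberg adjustment over 23999 probe sets, with 0.05 as the limit. The code was tested on simulated data. Marker lists were compared by 8000 exact permutations of labels within times, adjusted over 24 tests. p-values measure the spread between biopsies, whose animals are not named. Same-numbered exposed and control arrays had correlated deviations over 0.1 in 21 of 27 pairs, and in all 3 pairs at 5 of 9 times; as 4 times fell short and the labels name no animals, the fit has no block, and blocked counts are given where they differ.

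Named genes are the 5 largest called rises and falls per window, the largest called rise and fall per time, the extremes of each family over 24-72 h, the 3 lowest p in the F test and the 2 largest called changes between windows; of each pathway list, up to 2 per window. Other genes named were chosen after their values were seen. The set and all lists were chosen with earlier results of these data known. Alternatives were a replicate block, quantile normalization, a filter on dim probe sets, the muscle markers as covariate, sham arrays as comparison, dates of transcription and of RNA extraction as blocks, another variance model, the mean of a gene's probe sets, the 6 arrays of a time alone, and leaving out each array.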

Additional observations from a re-analysis of the deposited data

Results flagged for a closer look

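These results stood out because the exposed minus control difference itself differed between times or windows in a direct test in limma. Over the 9 times it varied for 25 of the 54 splicing genes, with the lowest adjusted p for SRSF7 (7.43e-06), SNRPA (2.97e-05) and SNRPB (7.42e-05). Between 24-72 h and 1-4 h 23 genes differed, with SNRPA at 0.70, HNRNPC at 0.62 and SRSF5 at -0.56 on the log2 scale. Between 168-514 h and 24-72 h 10 genes differed, with SNRPA at -0.55 and PRPF38A at -0.49.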

How the results depend on the processing

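Counts at 24 h and over 24-72 h moved by under 1.5 times in every fit but those with sham arrays and, for genes lower over 24-72 h, 1 fit with an array left out; counts at every other single time, 48 h included, moved by more in at least 1 fit. The cause was not tested. With a replicate block the number called was 1 for 1 h, 4 for 72 h, 4 for 336 h and 8 for 514 h, against 2, 2, 2 and 4 without it; no other count moved by over 1.5 times under the block, and at 24 h it called 35 higher and 3 lower, with the 36 earlier calls all kept. In the windows the block called 6 higher and 3 lower over 1-4 h, 33 and 7 over 24-72 h, and 13 and 3 over 168-514 h. Calls also rose over all probe sets, to 31.8% at 24 h and 39.4% over 24-72 h, from 27.1% and 35.1% without the block. Over 1-4 h and 168-514 h the block called 7.75% and 26.7% of all probe sets. Sham arrays in place of controls, 1 a time, gave no call (0) for 1, 2, 336 and 514 h, 1 call each for 4 and 72 h, 2 for 168 h, 9 for 48 h and 19 for 24 h. They gave 1 higher and 0 lower over 1-4 h, 20 higher and 7 lower over 24-72 h and 5 higher and 1 lower, 6 in all, over 168-514 h. Of all probe sets 1.48%, 27.8% and 11.0% were called in these windows against sham arrays, and 13.0% at 24 h. With sham arrays the difference varied over the 9 times for 7 genes, from 1-4 h to 24-72 h for 10 and from 24-72 h to 168-514 h for 2, and SNRPG over 1-4 h was -0.0019. Renewed quantile normalization gave 1 call at 72 h. The muscle covariate gave 2 at 2 h and 2 at 514 h. Either date block gave 1 call at 336 h, and the other variance model 2 at 514 h. The mean of a gene's probe sets gave 1 call each for 72 and 336 h, 2 for 514 h, and 7 over 168-514 h, 5 of them higher; SRSF6 over 168-514 h was then -0.055 and SNRPN over 24-72 h 0.054. The 6 arrays of a time alone gave none (0) for 1, 2 and 336 h, 1 for 4 h and 2 for 48 h. The filter on dim probe sets moved no count by over 1.5 times.

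With 1 array left out at a time, calls numbered 0 to 1 for 1 h and for 2 h, 3 to 4 for 4 h, 32 to 34 for 24 h, 5 to 13 for 48 h, 1 to 2 for 72 h, 2 to 7 for 168 h, 0 to 3 for 336 h and 1 to 5 for 514 h. Over 1-4 h they numbered 6 to 9 (4 to 7 higher, 2 to 2 lower), over 24-72 h 35 to 39 (30 to 33 higher, 3 to 7 lower) and over 168-514 h 6 to 12 (5 to 10 higher, 0 to 3 lower). The lows came at 48 h without exposed replicate 3, for genes lower over 24-72 h without that same array, for all calls over 24-72 h without exposed replicate 3 of 24 h or of 72 h, at 168 h without exposed replicate 1 or control replicate 3, at 336 h without replicate 2 of either group, at 514 h without control replicate 1 or exposed replicate 2, and over 168-514 h without exposed replicate 1 of 336 h or control replicate 1 of 514 h, with the low of 5 higher without that control array or exposed replicate 2 of 336 h. Sham arrays gave 0 calls against control in each fit. SNRPN over 24-72 h ran from -0.057 to 0.0098, with 0.00076 without exposed replicate 1 of 24 h and the highest value without exposed replicate 3 of 72 h. Of 582 such fits of named genes 66 lost the call.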
